A study of Mus musculus with 11 samples.

Results

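The transcripts of 6 CXC chemokines, Cxcl1, Cxcl2, Cxcl3, Cxcl5, Ppbp and Pf4, and of the chemokine receptor Cxcr2 were followed in 11 mouse hearts. They were chosen by name, as chemokines that attract neutrophils and their receptor, and matched 7 of the 55513 genes in the count table, 1 identifier each. This choice was made with earlier results of these data known. All hearts came from female C57BL/6J mice aged 8 weeks. In 8 mice the left anterior descending coronary artery was ligated for good, which causes a myocardial infarction (MI). Tissue of the infarct and its border zone was taken from these mice 3 days later. Of these, 4 mice (A116, A117, A119 and A120) received GI254023X at 100 mg/kg, a small-molecule inhibitor of the membrane protease ADAM10 (A10i), by a pump placed under the skin, and 4 mice (A105, A127, A128 and A129) received the solvent DMSO. The remaining 3 mice (S1, S2 and S3) had a sham operation and DMSO, and their samples were healthy heart tissue. Sham-operated mice with A10i were not analysed here, so the effect of the compound was seen only on top of an infarct, and it reached the whole animal and not the heart alone.

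Chemokines are small secreted proteins that guide leukocytes along a gradient. CXCR2 is a receptor of the G protein-coupled class that is carried mainly by neutrophils, and its binding of Cxcl1, Cxcl2, Cxcl3 or Cxcl5 draws these cells out of the bone marrow and into damaged tissue. Cxcl1, Cxcl2, Cxcl3 and Cxcl5 are made on demand by endothelial cells, fibroblasts, macrophages and neutrophils after signals such as interleukin-1, which act through the transcription factor NF-kB. Ppbp encodes a platelet precursor protein that is trimmed to a CXCR2 ligand, and Pf4 (platelet factor 4) is stored in the same platelet granules. Pf4 is also transcribed by tissue macrophages and is not a classical CXCR2 ligand, so its place in the group rests on its family and its gene position.

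The 6 ligand genes lie on the forward strand of chromosome 5 (GRCm38, the assembly also called mm10) within about 150 kb. From the start of Cxcl5 (chr5:90759360-90761624) the next genes are Ppbp (chr5:90768518-90770063), Pf4 (chr5:90772435-90773383), Cxcl3 (chr5:90786103-90789600), Cxcl1 (chr5:90891241-90893115) and Cxcl2 (chr5:90903871-90905938). Cxcr2 lies on chromosome 1 (chr1:74153989-74161246). No exon or span of these 7 genes overlapped another annotated gene. Of all 100-base runs in their annotated transcripts, Cxcl2 and Cxcl3 shared 69 with each other, 3.05% of the runs of Cxcl2 and 1.88% of those of Cxcl3, and the other 5 genes shared 0 with any gene, so little of their sequence was common to more than 1 gene.

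The promoters of Cxcl1, Cxcl2 and Cxcl3 are shown because they hold the same NF-kB motif close to the start site, whereas those of Ppbp and Pf4 do not. Each line runs 5′ to 3′ and holds 130 bases before the start site and 50 bases from the start site onward (RefSeq, GRCm38.p6, forward strand). Capitals mark the motif. The windows are chr5:90891115-90891294 for Cxcl1, chr5:90903769-90903948 for Cxcl2 and chr5:90785971-90786150 for Cxcl3.
Cxcl1: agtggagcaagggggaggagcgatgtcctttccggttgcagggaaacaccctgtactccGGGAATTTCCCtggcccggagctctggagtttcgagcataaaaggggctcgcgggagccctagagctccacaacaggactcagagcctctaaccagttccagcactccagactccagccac
Cxcl2: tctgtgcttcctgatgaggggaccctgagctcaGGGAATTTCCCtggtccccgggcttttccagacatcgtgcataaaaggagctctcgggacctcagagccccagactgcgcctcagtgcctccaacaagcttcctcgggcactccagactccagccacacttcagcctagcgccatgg
Cxcl3: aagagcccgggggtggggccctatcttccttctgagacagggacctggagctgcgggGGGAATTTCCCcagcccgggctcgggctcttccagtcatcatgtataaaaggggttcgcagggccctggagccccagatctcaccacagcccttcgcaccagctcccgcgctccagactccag

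The motif searched was GGGANNTTC on both strands, and in these promoters it matched once on each strand, at overlapping places within the run gggaatttccc. The run began at base -71 in Cxcl1, -97 in Cxcl2 and -73 in Cxcl3, counted back from the start site. Of 32851 promoters of the same length (250 bases before to 50 after the start), 3.94% held it. The Cxcr2 promoter had a match on the reverse strand at base -157, and those of Ppbp and Pf4 had no match in this window. The letters TATAAA on the gene strand, present in 8.32% of all promoters, stood at base -30 in Cxcl3 and at bases -30 and -8 in Ppbp. The AP-1 motif TGANTCA, present in 7.81% of all promoters, was found in Ppbp alone among the 6 members with a promoter in the table, at base -204. A promoter of Cxcl5 was not analysed here. These matches describe letters and were not tested as binding sites.

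Total counts were 25538052 to 29511782 in the Sham, 22651290 to 29004098 in the DMSO and 21702659 to 25695258 in the A10i libraries. Levels are given as CPM, counts per 1000000 after scaling of the library sizes by the trimmed mean of M-values (TMM), and 3 counts, the limit that a count of 0 allows, corresponded to 0.101 to 0.134 CPM. The cardiomyocyte marker list summed to 71692 to 73721 CPM in Sham, 36863 to 52514 CPM in DMSO and 41617 to 56799 CPM in A10i hearts, and the fibroblast list to 1142 to 1242, 1915 to 6360 and 4817 to 8891 CPM. Red blood cell transcripts varied most, from 234 to 5014 CPM among the infarcted hearts. In bulk tissue fewer cells of a type and less RNA per cell cannot be told apart, and this holds for each value below.

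**Figure D1:**
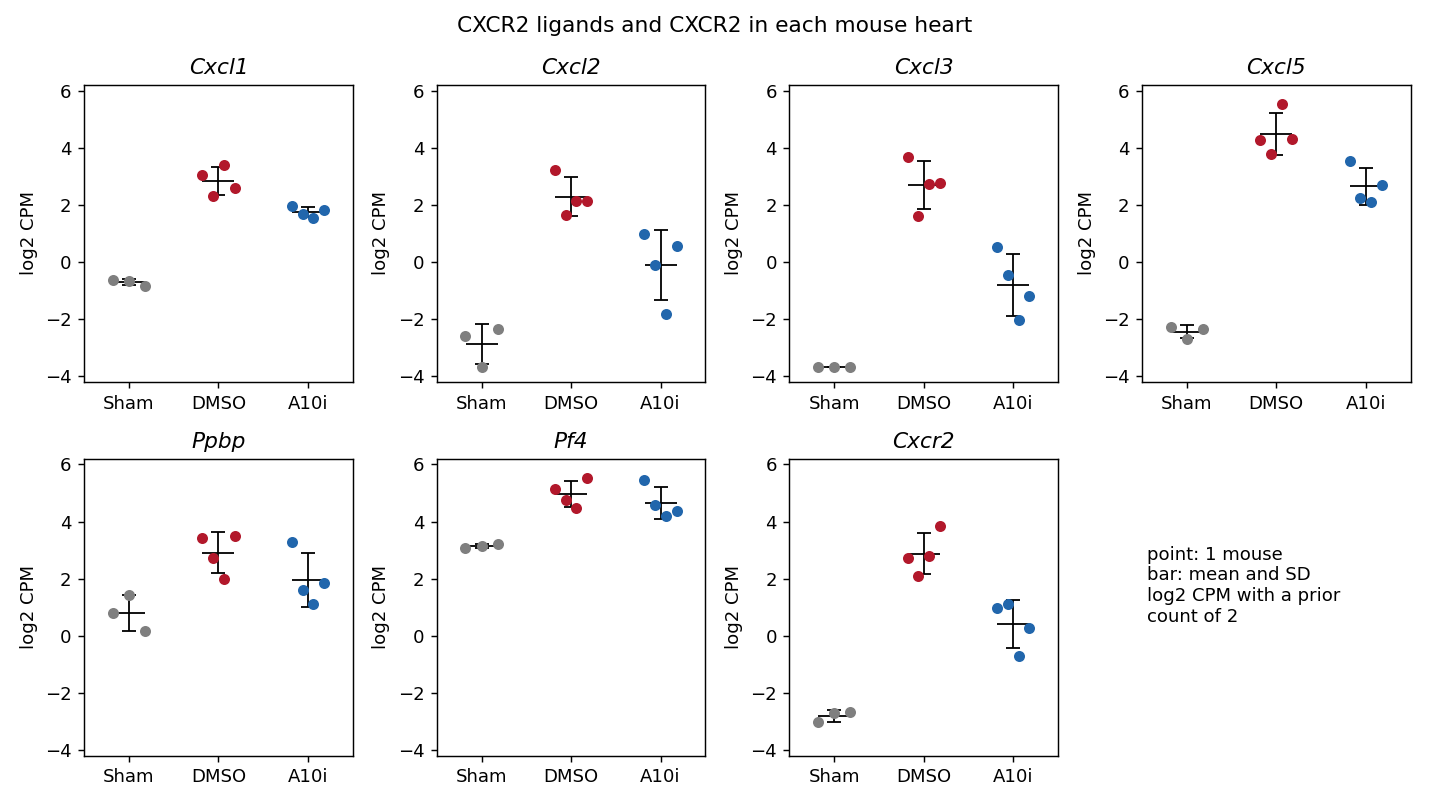
Level of each gene in each heart as log2 CPM with a prior count of 2 (vertical axis) for Sham, DMSO and A10i mice (horizontal axis); each point is 1 mouse and the bars give the mean and SD. For Cxcl1, Cxcl2, Cxcl3, Cxcl5 and Cxcr2 all 4 A10i mice lie below all 4 DMSO mice, whereas the groups overlap for Ppbp and Pf4.

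The first question was how infarction changed these transcripts. All 7 genes rose in DMSO-treated MI hearts over Sham (adjusted p-values by edgeR under 0.01, Benjamini-Hochberg over 17119 genes), where 12.9% of all genes tested were higher and 9.6% lower at the same threshold. The inducible ligands and the receptor were close to absent in Sham and rose from about 14-fold to more than 200-fold. Ppbp and Pf4 were present in Sham and rose about 4-fold. Over Sham, 5 of the 6 genes tested also rose in A10i hearts, all but Ppbp, where 13.8% of 17004 genes were higher and 9.09% lower, and Cxcl3 did not pass the filter on low counts in that comparison. The fits against Sham share the 3 Sham libraries.

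Cxcl1 encodes a major neutrophil attractant of the mouse. Its level was 0.566, 0.557 and 0.483 CPM in Sham mice S1, S2 and S3. In DMSO mice A105, A127, A128 and A129 it was 8.17, 4.87, 10.5 and 5.97 CPM, and in A10i mice A116, A117, A119 and A120 it was 3.83, 3.09, 2.81 and 3.49 CPM. The A10i mice lay close together and below each DMSO mouse, and no Sham mouse reached either group. From 40 counts in all Sham and 803 in all DMSO libraries, the level was 13.8-fold higher in DMSO (95% exact counting interval 10.04 to 19.5), with a log2 fold change of 3.76 (SE 0.32, adjusted p = 8.71e-05). Against Sham, A10i hearts had a log2 fold change of 2.62 (SE 0.22, adjusted p = 8.42e-05). Cxcl1 had the smallest SD of the 4 inducible ligands among the A10i mice, 3.31 ± 0.448 CPM (SD, n = 4) against 7.37 ± 2.48 CPM (SD, n = 4) with DMSO.

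Cxcl2, known as macrophage inflammatory protein 2, is made by macrophages and by neutrophils themselves. Sham libraries held 2, 0 and 3 counts. The level was 9.35, 3.06, 4.33 and 4.30 CPM in DMSO mice A105, A127, A128 and A129, and 1.90, 0.85, 0.207 and 1.39 CPM in A10i mice A116, A117, A119 and A120. The highest A10i mouse remained under the lowest DMSO mouse, and A119 came down to 5 counts. The log2 fold change over Sham was 6.18 with DMSO (SE 0.68, adjusted p = 0.000335) and 3.92 with A10i (SE 0.93, adjusted p = 0.00981). The call with A10i was lost without S1, S2 or S3 (adjusted p = 0.0271 to 0.0368), and Cxcl2 could not be tested without A116, A117 or A120.

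Cxcl3, a close relative of Cxcl2, was at 0 counts in each Sham heart. With DMSO the libraries held 297, 88, 194 and 171 counts (A105, A127, A128 and A129), or 12.6, 2.96, 6.51 and 6.68 CPM. With A10i they held 34, 17, 4 and 8 counts (A116, A117, A119 and A120), or 1.34, 0.656, 0.165 and 0.358 CPM. Cxcl3 was thus the ligand with the widest gap between the infarcted groups, and its total over the A10i libraries, 63 counts, was the lowest among the ligands. Set against the floor of 3 counts per Sham library, the mean level was at least 59.7-fold higher in DMSO (adjusted p = 0.000888, and 0.0269 with no filter on low counts) and at least 5.24-fold higher in A10i hearts. Cxcl3 did not pass edgeR's filter in A10i against Sham, where DESeq2 gave an adjusted p of 4.42e-05 and the exact permutation test (two-sided) p = 0.0571.

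Cxcl5, which epithelial cells and platelets can also make, reached the highest level per transcript length of the inducible ligands. Sham libraries held 3, 2 and 3 counts. The level was 19.1, 13.8, 46.7 and 19.7 CPM in DMSO mice A105, A127, A128 and A129, and 11.6, 4.63, 4.22 and 6.40 CPM in A10i mice A116, A117, A119 and A120. A128 stood above the other DMSO mice, and the groups came nearest to each other in A116 and A127. The counts were 237-fold higher in DMSO than in Sham libraries (95% exact counting interval 120 to 550), with a log2 fold change of 7.79 (SE 0.70, adjusted p = 0.000162). With A10i the log2 fold change over Sham was 5.91 (SE 0.58, adjusted p = 0.000269). Counting intervals cover counting error only, not the spread between mice.

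Ppbp and Pf4 behaved differently. Ppbp was 1.65, 2.64 and 1.05 CPM in Sham mice, 10.7, 6.49, 3.89 and 11.2 CPM in DMSO mice A105, A127, A128 and A129, and 9.72, 2.97, 2.07 and 3.49 CPM in A10i mice A116, A117, A119 and A120. The A10i group overlapped with both other groups. Ppbp had a log2 fold change over Sham of 2.16 with DMSO (SE 0.44, adjusted p = 0.00507), a call lost without S1, S2, S3 or A129 (adjusted p = 0.0102 to 0.0273), and of 1.36 with A10i (SE 0.57, adjusted p = 0.0907). Without A116 the A10i value over Sham was 0.67.

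Pf4 was the most abundant of the 7 transcripts per kilobase in each group. It was 8.31, 8.72 and 9.17 CPM in Sham mice, 35.0, 26.8, 21.98 and 45.8 CPM in DMSO mice A105, A127, A128 and A129, and 43.6, 23.8, 18.1 and 20.8 CPM in A10i mice A116, A117, A119 and A120. Both infarcted groups lay above each Sham mouse and overlapped with each other. The log2 fold change over Sham was 1.88 with DMSO (SE 0.24, adjusted p = 0.000691) and 1.61 with A10i (SE 0.30, adjusted p = 0.00393), the second call being lost without S1, S2 or S3 (adjusted p = 0.0129 to 0.0173).

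Cxcr2, the receptor, held 1, 2 and 2 counts in Sham libraries. Its level was 6.56, 4.23, 6.81 and 14.4 CPM in DMSO mice A105, A127, A128 and A129, and 1.90, 2.09, 0.538 and 1.12 CPM in A10i mice A116, A117, A119 and A120. A129 was the highest heart, and the highest A10i mouse was below the lowest DMSO mouse. The log2 fold change over Sham was 6.80 with DMSO (SE 0.66, adjusted p = 0.000212) and 4.31 with A10i (SE 0.65, adjusted p = 0.000926). Cxcr1, the related receptor that shares some of these ligands, had 0 to 9 counts in DMSO libraries and 0 in the others.

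The second question was whether ADAM10 inhibition changed the transcripts in infarcted hearts. The levels with A10i were lower than with DMSO for all 7 genes, by a factor of 11.4 for Cxcl3, 5.67 for Cxcr2, 4.85 for Cxcl2, 3.70 for Cxcl5 and 2.23 for Cxcl1, and of 1.77 for Ppbp and 1.22 for Pf4 (ratios of mean CPM, n = 4 mice each). At a threshold of 0.01 on the adjusted p-value, edgeR called 0 of the 7 genes and 0 of 16793 genes overall (0% higher and 0% lower). At an unadjusted p below 0.05, 5 of the 7 genes were lower, against 6.73% of all genes lower and 7.1% higher. For the same 5 genes, Cxcl1, Cxcl2, Cxcl3, Cxcl5 and Cxcr2, each A10i mouse lay below each DMSO mouse, as for 4.4% of all genes tested. DESeq2's Wald test, an alternative here, called 4 of the 7 genes lower at an adjusted p below 0.01, all of these but Cxcl5, against 0.677% of 18161 genes. DESeq2, there with the package IHW, was the test of the study. Because the 7 genes were chosen with earlier results of these data known, the shares of all genes describe and do not test the group.

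The fitted values ordered the genes in the same way. Cxcl3 had a log2 fold change of -3.47 (95% confidence interval -4.76 to -2.17, adjusted p = 0.0707 in edgeR). Cxcr2 followed with -2.48 (interval -3.52 to -1.44, adjusted p = 0.0821) and Cxcl2 with -2.26 (interval -3.45 to -1.07, adjusted p = 0.125). Cxcl5 had -1.88 (interval -2.85 to -0.91, adjusted p = 0.118) and Cxcl1 -1.15 (interval -1.67 to -0.62, adjusted p = 0.0931). The intervals of these 5 genes lay below 0, and neighbours in this order had overlapping intervals. For Ppbp the value was -0.81 (interval -1.91 to 0.29, adjusted p = 0.509) and for Pf4 -0.28 (interval -0.95 to 0.40, adjusted p = 0.738), and both intervals spanned 0. Without A116, the A10i mouse with the most Ppbp and Pf4, the values were -1.49 (adjusted p = 0.133 in edgeR) and -0.62. Taken singly, each of the 5 genes without overlap had p = 0.0286 in an exact permutation test over the 8 mice (two-sided), the smallest value that 4 mice against 4 allow, and Ppbp had p = 0.143 and Pf4 p = 0.4 in the same exact test.

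DESeq2 gave adjusted p-values of 6.90e-06 for Cxcr2, 0.000223 for Cxcl3, 0.00113 for Cxcl1, 0.00125 for Cxcl2 and 0.0154 for Cxcl5, and limma-voom gave 0.0989 to 0.123 for the same genes. The call of these genes between A10i and DMSO therefore rested on the test used, not on the direction. Leaving out A105 changed the fold change of Cxcl2 to -1.83 and that of Cxcl3 to -3.06, and leaving out A128 changed that of Cxcl5 to -1.37 and that of Cxcl1 to -0.93. Without A129 the value of Cxcr2 was -2.03. All 56 edgeR fits that left out 1 library kept the sign of the 7 genes, and none called them at 0.01.

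**Figure D2:**
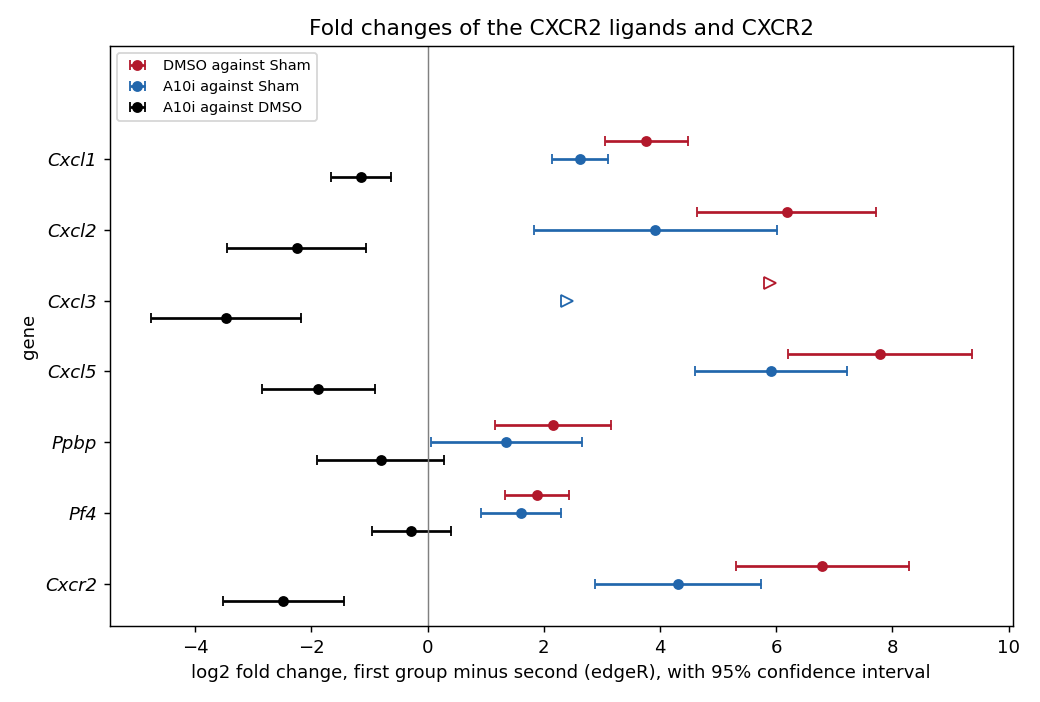
Log2 fold change (horizontal axis) of each gene (vertical axis) in the comparisons of DMSO with Sham, A10i with Sham and A10i with DMSO, from edgeR with 95% confidence intervals; open arrowheads give the lower bound of Cxcl3, which had 0 counts in Sham. In A10i against DMSO the intervals of Ppbp and Pf4 span 0 and those of the other 5 genes do not.

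Expressed as a share of the mean rise from Sham to DMSO, the mean level with A10i kept 8.79% of the rise for Cxcl3 (range over the 4 A10i mice 2.31 to 18.7%), 17.0% for Cxcr2 (5.95 to 25.5%), 19.6% for Cxcl2 (2.65 to 35.2%), 26.7% for Cxcl5 (16.6 to 46.5%) and 40.6% for Cxcl1 (33.3 to 48.3%). For Ppbp the share was 44.2% (4.61 to 126%) and for Pf4 75.3% (39.4 to 147%). Within Cxcl1 the A10i mice were alike, whereas those of Ppbp ran from almost no rise to more than the mean of the DMSO mice. These shares reuse the Sham and DMSO means and carry no test.

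The order of the mice was similar across genes in the A10i group and differed between genes in the DMSO group. Among A10i mice, A119 was lowest in all 7 genes, and A116 was highest in all but Cxcr2, where A117 was highest. Among DMSO mice, A127 was lowest in Cxcl1, Cxcl2, Cxcl3, Cxcl5 and Cxcr2, and A128 was lowest in Ppbp and Pf4. A128 had the most Cxcl1 and Cxcl5, A105 the most Cxcl2 and Cxcl3, and A129 the most Ppbp, Pf4 and Cxcr2.

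Over the 8 infarcted hearts, the log2 CPM of Ppbp and Pf4 had a Pearson r of 0.939, that of Cxcl1 and Cxcl5 of 0.956 and that of Cxcl2 and Cxcl3 of 0.946. After the group means were removed, r was 0.957, 0.850 and 0.845 for these pairs. Cxcl1 and Cxcr2 had r = 0.811 over all 8 hearts and 0.224 after the group means were removed, so most of that likeness lay in the difference between the groups. Cxcl1 and Pf4 had the lowest r of all pairs, 0.289, and -0.0068 with group means removed. Other pairs across the ligands were closer. Cxcl3 and Pf4 had r = 0.597 and 0.713 with group means removed, and Cxcl2 and Ppbp had 0.791 and 0.707. By the same 2 measures, Cxcl3 and Cxcl5 had 0.882 and 0.547, and Cxcl3 and Cxcr2 had 0.936 and 0.701. The points share library, depth and tissue piece, and the values are descriptions over 8 libraries with no test.

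Among 16792 other genes tested, the 5 most like Cxcr2 over the same 8 hearts were Il1r2 (r = 0.992), the decoy receptor for interleukin-1 found on neutrophils, Rbm3-ps, Med15, Chil3 (r = 0.981), a lectin of myeloid cells, and Wfdc21. Those most like Cxcl1 were AC114990.1 (r = 0.983), Gm7553, D330025C20Rik, Tamm41 and Sele (r = 0.957), the endothelial adhesion molecule E-selectin. For Cxcl2 they were Adamts6 (r = 0.980), Ruvbl1, Wdfy1, Pusl1 and Il1f9, an interleukin-1 family cytokine, and for Cxcl3 they were Pcdhb22 (r = 0.993), Sbno2, Ythdf2, Eif1a and Trmt6. For Cxcl5 they were Gm17222 (r = 0.973), Gm7553, Ch25h, Gm12791 and Rnd1. Ppbp was most like Rffl (r = 0.985), Ptpa, Gm12918, Clec5a and Prx, and Pf4 most like Gm3608 (r = 0.987), Plek (r = 0.985), a platelet and leukocyte kinase substrate, Mtpn, Actn1 and Rbpj. With 8 libraries and this many genes, such values describe likeness in these hearts only.

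To compare genes with each other, CPM was divided by the exon length. In DMSO hearts the mean level was 44.98 CPM per kilobase for Pf4, 13.3 for Cxcl5, 7.46 for Ppbp, 3.93 for Cxcl1, 2.62 for Cxcr2, 2.54 for Cxcl2 and 2.05 for Cxcl3. In A10i hearts the order was Pf4 (36.9), Ppbp (4.21), Cxcl5 (3.61), Cxcl1 (1.76), Cxcl2 (0.525), Cxcr2 (0.463) and Cxcl3 (0.180). In Sham hearts only Pf4 (12.1), Ppbp (1.64) and Cxcl1 (0.285) stood clear of the others, which were at 0.0582 or less. The mean of Ppbp above that of Cxcl5 in the A10i group rested on A116, with 8.98 CPM per kilobase for Ppbp and 6.24 for Cxcl5. In A117 the values were 2.75 and 2.49, whereas Ppbp was below Cxcl5 in A119 (1.91 and 2.27) and A120 (3.22 and 3.44). The lower ranks in DMSO hearts (Cxcr2, Cxcl2 and Cxcl3) differed by less than the spread between mice. Cxcl1 was above Cxcl3 in each DMSO heart, with 4.36 and 3.59 CPM per kilobase in A105 and 2.60 and 0.845 in A127. In A128 the values were 5.58 and 1.86, and in A129 they were 3.19 and 1.91.

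The make-up of the ligand transcripts shifted with infarction. Of the summed CPM per kilobase of the 6 ligands, Pf4 held 85.8 ± 4.5% in Sham (SD, n = 3), 60.1 ± 11.3% in DMSO (SD, n = 4) and 78.7 ± 3.1% in A10i hearts (SD, n = 4). Cxcl1, Cxcl2, Cxcl3 and Cxcl5 together held 2.68 ± 0.40%, 29.99 ± 14.1% and 13.1 ± 1.93% in the same groups, with 19.4 to 50.4% in DMSO and 11.7 to 15.9% in A10i mice. The groups did not overlap, and the DMSO mean rested in part on A128, where Cxcl5 alone held 36.5%. Cxcl5 was the largest of the inducible ligands in each infarcted heart, with 18.5 ± 12.0% in DMSO and 7.59 ± 1.20% in A10i mice. The shares describe transcripts and not protein.

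**Figure D3:**
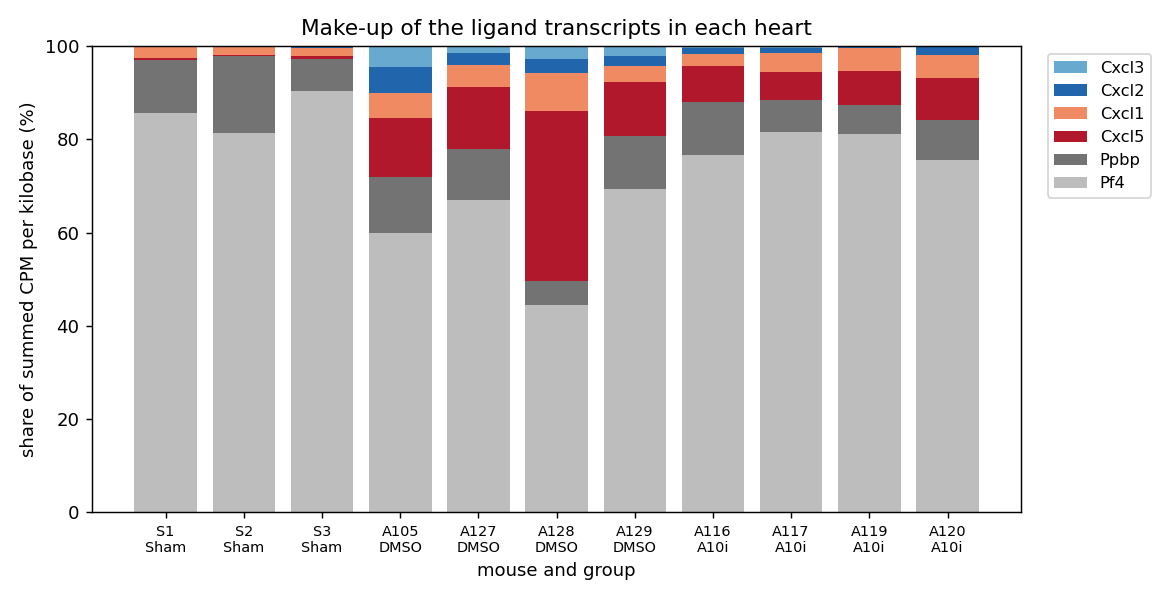
Share of each ligand in the summed CPM per kilobase of the 6 ligands (vertical axis, percent) in each mouse (horizontal axis, with its group). The coloured part, Cxcl1, Cxcl2, Cxcl3 and Cxcl5, holds 2.27 to 3.07% in Sham, 19.4 to 50.4% in DMSO and 11.7 to 15.9% in A10i mice.

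Most markers of neutrophils, the main carriers of Cxcr2, also rose with infarction and were lower with A10i than with DMSO. The 25 listed neutrophil markers summed to 27.7 to 38.8 CPM in Sham, 163 to 283 CPM in DMSO and 70.5 to 134 CPM in A10i hearts. Within these sums G0s2 alone gave 20.3 to 29.1, 19.1 to 28.9 and 24.3 to 36.3 CPM, and thus most of the Sham sum. Of the 18 markers tested between A10i and DMSO, 15 had a lower and 1, G0s2, a higher level with an unadjusted edgeR p below 0.05. Over all genes 6.73% were lower and 7.1% higher by this measure. None passed an adjusted p below 0.01, and the median log2 fold change was -1.52, against 0.0034 over all genes. S100a8 and S100a9, the subunits of calprotectin, had log2 fold changes of -2.001 and -1.95, and Stfa2l1, a protease inhibitor of the stefin family, of -2.61 (adjusted p = 0.0707 each). Of the defining markers, Ly6g had 1 to 8 counts in each infarcted heart and 0 in each Sham heart, and Elane was at 0 counts in all. Over Sham, 17 of 18 neutrophil markers were higher with DMSO and 12 of 16 with A10i at an adjusted p below 0.01, against 12.9% and 13.8% of all genes.

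Each gene was therefore also set against the mean log2 CPM of the 18 neutrophil markers of the same library. This ratio takes out what a gene has in common with the mean of the markers in that heart. Its size depends on which markers are averaged, and they did not move alike. G0s2, present in Sham and higher with A10i, is among them. Il1r2, also among them, was 5.17 to 20.8 CPM with DMSO and 0.538 to 2.88 CPM with A10i. Relative to the markers, Cxcl3 was -0.33 ± 0.65 with DMSO and -2.29 ± 0.43 with A10i (mean log2 ratio, SD, n = 4 each), a difference of -1.96. The groups did not overlap (exact permutation test, two-sided, p = 0.0286, and 0.129 after Benjamini-Hochberg adjustment over 9 ratios). Cxcr2 was -0.15 ± 0.42 with DMSO and -1.08 ± 0.34 with A10i, a difference of -0.94, again without overlap and with the same exact p-values (0.0286 and 0.129). Neither ratio passed the adjustment, and 9 ratios with 4 mice against 4 could pass 0.05 only if at least 6 of them were at the smallest p.

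The other ratios overlapped between the groups. Cxcl2 had a difference of -0.87 relative to the neutrophil markers (exact permutation p = 0.0857, adjusted 0.193) and Cxcl5 of -0.31 (exact permutation p = 0.514). For Cxcl1 the ratio was higher with A10i by 0.43 (exact permutation p = 0.314, adjusted 0.404), with -0.18 ± 0.44 in DMSO and 0.25 ± 0.56 in A10i mice. The ratio of Cxcl1 was highest in A119, the heart with the lowest neutrophil score, 0.54 mean log2 CPM, and lowest in A129, the heart with the highest score, 3.36. The score is subtracted in this ratio, so such an order follows in part from the arithmetic. The sum of Cxcl1, Cxcl2, Cxcl3 and Cxcl5 relative to Cxcr2 was higher with A10i by 0.54 on the log2 scale (exact permutation p = 0.429), a difference within the spread between mice.

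**Figure D4:**
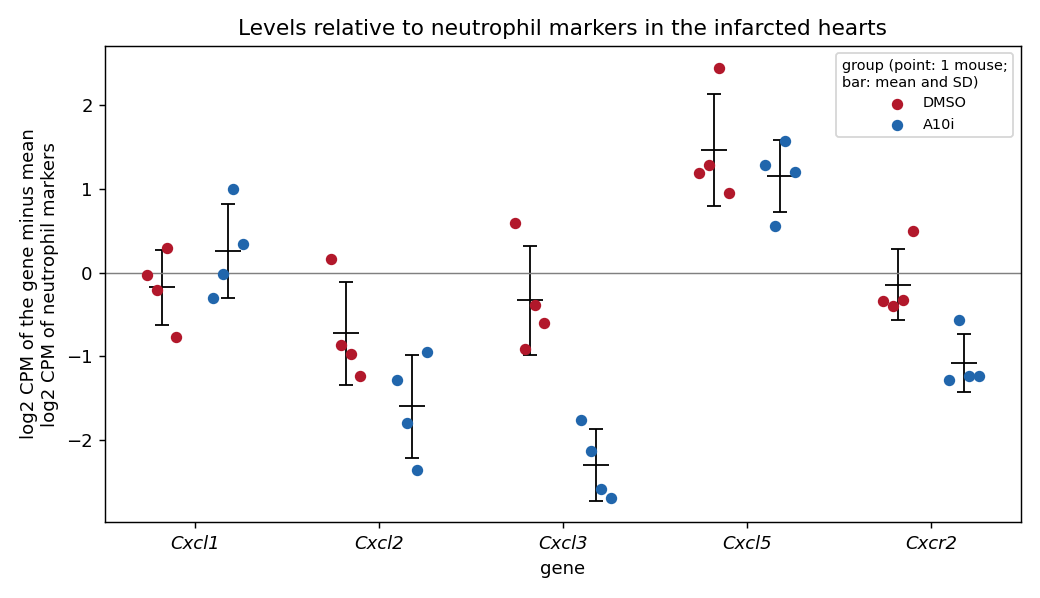
Log2 CPM of Cxcl1, Cxcl2, Cxcl3, Cxcl5 and Cxcr2 minus the mean log2 CPM of 18 neutrophil markers in the same heart (vertical axis) for DMSO and A10i mice; each point is 1 mouse and the bars give the mean and SD. The groups are apart for Cxcl3 and Cxcr2 and overlap for Cxcl1, Cxcl2 and Cxcl5.

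Beside Ppbp and Pf4, the platelet and megakaryocyte list summed to 37.7 to 43.3 CPM in Sham, 59.3 to 86.8 CPM in DMSO and 62.6 to 82.9 CPM in A10i hearts. Of its genes, 2 of 11 rose over Sham with DMSO and 4 of 11 with A10i, against 12.9% and 13.8% of all genes. The list had median log2 fold changes of 0.55 and 0.95 there. Selp, the adhesion molecule P-selectin of platelets and endothelium, led with 5.26 (adjusted p = 0.000136 in edgeR) and 4.15 (adjusted p = 0.000324 in edgeR). The same shares stand beside the list counts below, with 7.1% higher and 6.73% lower between A10i and DMSO at an unadjusted p below 0.05. Between A10i and DMSO, 0 of 10 passed the threshold of 0.01, with Selp at -1.12 (adjusted p = 0.181) and P2ry12, an ADP receptor, at 0.39 (adjusted p = 0.298), the genes with an unadjusted p below 0.05. Of the platelet-defining genes, Gp1ba had 2 to 8 counts and Itga2b 31 to 118 counts in each library. Relative to 10 of these markers, Ppbp differed by -1.06 between A10i and DMSO (exact permutation p = 0.0857, adjusted 0.193) and Pf4 by -0.43 (exact permutation p = 0.286).

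The resident macrophage list, all 8 genes of which were tested, summed to 386 to 412 CPM in Sham, 465 to 508 CPM in DMSO and 475 to 689 CPM in A10i hearts. Its genes were all on the higher side with A10i over DMSO (8 of 8, median log2 fold change 0.40), 4 of them with an unadjusted p below 0.05 and 0 past the adjusted threshold. Folr2, a folate receptor of these macrophages, had the smallest p-value, with 0.58 (adjusted p = 0.132 in edgeR). Pf4 relative to this list differed by -0.70 (exact permutation p = 0.143). Macrophage and monocyte markers summed to 329 to 364 CPM in Sham, 561 to 944 CPM in DMSO and 729 to 1389 CPM in A10i hearts, with 4 of 12 genes higher and 0 lower between A10i and DMSO at an unadjusted p below 0.05 and 0 past the adjusted threshold. The part that platelets, macrophages or neutrophils had in any of these results was not tested.

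**Figure D5:**
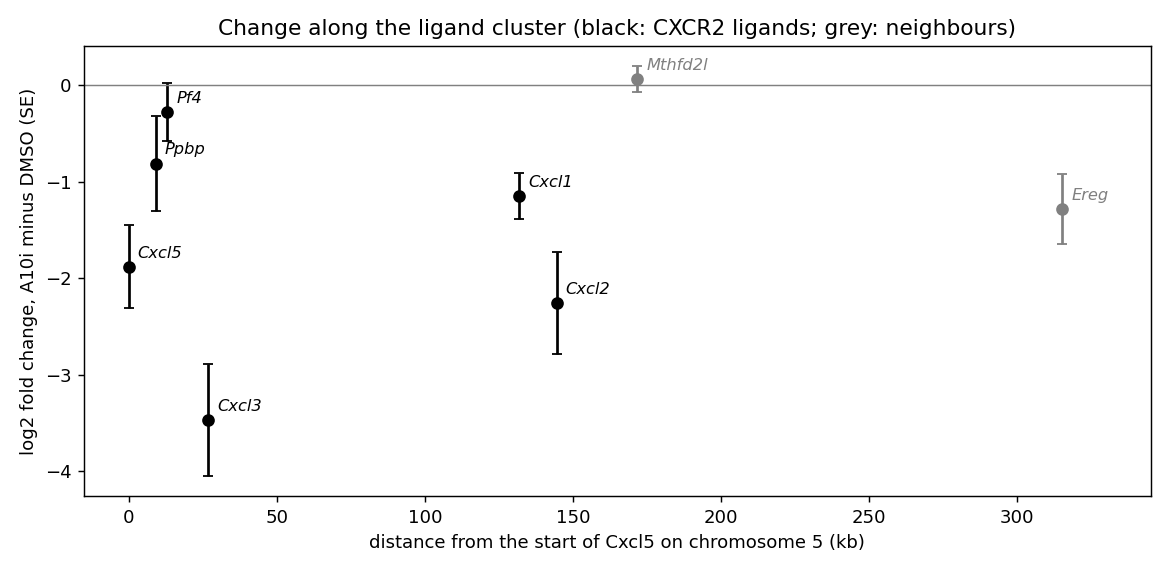
Log2 fold change of A10i against DMSO with its SE (vertical axis) by distance of each gene from the start of Cxcl5 on chromosome 5 in kilobases (horizontal axis), for the 6 ligands in black and the tested neighbours within the window in grey. Ppbp and Pf4, at -0.81 and -0.28, lie between Cxcl5 at -1.88 and Cxcl3 at -3.47.

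Along the gene cluster the changes did not follow position. Cxcl5 (-1.88), Ppbp (-0.81), Pf4 (-0.28) and Cxcl3 (-3.47) lie within 26.7 kb from start to start, and Cxcl1 (-1.15) and Cxcl2 (-2.26) follow at 132 and 145 kb. Cxcl15, between Cxcl3 and Cxcl1, had 0 counts in each library. Beyond Cxcl2, the mitochondrial folate enzyme gene Mthfd2l at 172 kb had a log2 fold change of 0.06 (adjusted p = 0.878 in edgeR) between A10i and DMSO. Ereg, the growth factor gene epiregulin at 315 kb, rose over Sham with DMSO by 5.41 (SE 0.60, adjusted p = 0.00032) and with A10i by 4.13 (adjusted p = 0.00113), and had -1.29 between A10i and DMSO (adjusted p = 0.173 in edgeR). Of 10 neighbours listed, 3 were tested in each comparison, and Ereg was the sole neighbour called over Sham.

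Of 17 signalling and trafficking genes, which carry the signal of the receptor through G proteins, kinases and arrestins, 10 rose and 0 fell over Sham in each infarcted group, with median log2 fold changes of 0.82 with DMSO and 0.68 with A10i. They were led by Fgr, a Src family kinase of myeloid cells, with 4.32 and 3.52, and Rac2, a GTPase of blood cells, with 2.23 and 1.98. Between A10i and DMSO the median was -0.03, with 1 gene lower at an unadjusted p below 0.05, the actin regulator Vasp (-0.33, adjusted p = 0.244 in edgeR). Over all genes, 6.73% were lower at this unadjusted p. Fgr had -0.81 (adjusted p = 0.391 in edgeR).

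The inducers of CXC ligand transcription, cytokines of the interleukin-1, tumor necrosis factor and interleukin-17 routes with their receptors, mostly rose with infarction. Over Sham with DMSO 11 of 13 tested rose and 1, the kinase gene Irak1, fell, with a median of 1.67. Il6 rose by 7.64, Il1b by 5.41 and Osm by 4.78 on the log2 scale. With A10i 8 of 11 rose and Irak1 fell, with a median of 1.03, and Il6 rose by 6.18, Il1b by 3.59 and Tnf by 2.11. Il1b was 6.51 ± 2.28 CPM with DMSO and 1.82 ± 1.38 CPM with A10i (SD, n = 4 each), a log2 fold change of -1.82 (adjusted p = 0.14 in edgeR).

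Between A10i and DMSO, 7 of 12 inducers were lower and 0 higher at an unadjusted p below 0.05, 0 at an adjusted p below 0.01, with a median of -0.37. After Il1b the smallest p-values were those of Il17ra, the receptor for interleukin-17 (-0.82, adjusted p = 0.161 in edgeR), and Myd88, the adaptor of interleukin-1 and Toll-like receptors (-0.35, adjusted p = 0.19 in edgeR). Csf3, the granulocyte growth factor gene, was named after its values were seen, since it had 44 counts in A128, the DMSO heart with the most Cxcl1 and Cxcl5, and 0 to 7 counts in all other hearts.

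Of 14 genes for NF-kB factors, their feedback inhibitors and mRNA decay, 9 rose and 0 fell over Sham with DMSO and 7 rose and 0 fell with A10i. Bcl3, an atypical NF-kB inhibitor, rose by 2.59 and 2.19, Nfkbiz by 1.65 and 1.32, and Ier3, an early response gene, by 1.55 and 0.82. Between A10i and DMSO 5 of 14 were lower and 0 higher at an unadjusted p below 0.05, 0 at an adjusted p below 0.01, with a median of -0.17. Ier3 had 81.3 ± 10.5 CPM with DMSO and 48.4 ± 3.26 CPM with A10i (SD, n = 4 each; log2 fold change -0.74, adjusted p = 0.048 in edgeR). Zfp36, which promotes decay of cytokine mRNAs, had -0.35 (adjusted p = 0.173 in edgeR) and Rela, the p65 subunit, -0.25 (adjusted p = 0.205 in edgeR).

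Among the CXC ligands of other receptors, 2 of 6 tested rose over Sham with DMSO, Cxcl13 (5.07) and Cxcl10 (2.44), and 2 of 5 with A10i, Cxcl10 (3.37) and Cxcl16 (1.36). Over all genes, 12.9% and 13.8% rose in these comparisons. Between A10i and DMSO 0 were called at an adjusted p below 0.01, 5 of 6 had a positive log2 fold change and the median was 0.17, and Cxcl16, a membrane-bound chemokine, had 0.54 (adjusted p = 0.291 in edgeR) and Cxcl10, an interferon-induced ligand of Cxcr3, 0.93 (adjusted p = 0.372 in edgeR). For the 7 CXCR2 genes the median of the same comparison was -1.88. Of 5 other receptors and scavengers tested, 2 rose over Sham in each infarcted group and 0 were called between A10i and DMSO, with a median of -0.0049 there. Cxcr6, the receptor of Cxcl16, rose over Sham by 5.04 with DMSO and 3.97 with A10i and had -1.07 between A10i and DMSO (adjusted p = 0.187 in edgeR), and Ackr1, a chemokine scavenger of red blood cells and venules, rose by 1.87 and 1.98. Ackr4, a scavenger of other chemokines, had 1.01 between A10i and DMSO (adjusted p = 0.236 in edgeR).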

How the data were processed

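Total RNA of 11 mouse hearts was enriched for poly(A) RNA and made into strand-specific libraries, which were sequenced as read pairs. Per the labels and the methods of the study, the authors used bcl2fastq 2.20.0, aligned the reads to mm10 with GSNAP and counted them on Ensembl 98 genes with featureCounts 2.0.1. They tested with the R packages DESeq2 and IHW at an adjusted p below 0.01, whereas edgeR was the main test here. The strand setting of the counting is not given in the sources used here. The deposited values are raw counts without normalization, and the table also holds the gene length in bases, here divided into CPM.

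Symbols and positions came from GENCODE M21 (55154 of 55513 identifiers), and promoters from RefSeq. Each pair of groups was fitted on its own libraries over all genes in R 4.3.3 with edgeR 4.0.16 (filterByExpr, TMM, robust quasi-likelihood F-test, two-sided, Benjamini-Hochberg, threshold 0.01), after tests on simulated data. DESeq2 1.42.0, limma-voom (limma 3.58.1), other scalings, other filters, a fit of 11 libraries, a threshold of 0.05 and leaving out each library were alternatives. Log2 CPM used a prior count of 2. Pairs of replicates differed by a chi-square of 4.04 to 60.8 per degree of freedom. Each library was 1 mouse by its label. The members and all gene lists were chosen with earlier results of these data known. Beside the members, the text names up to 3 genes per list: those past the threshold with the largest fold change or, where none passed, those with the smallest p-values, and 5 genes most like each member. Exceptions, named after their values were seen, are Csf3, Cxcr1, Irak1, G0s2, Ly6g, Elane, Gp1ba and Cxcl15. A protein comparison that was planned was not run.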

Additional observations from a re-analysis of the deposited data

Results flagged for a closer look

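The log2 ratio of Cxcr2 to the neutrophil markers held a heart far from the others in both infarcted groups. In the DMSO group A129 stood at 0.49 while the other 3 mice lay between -0.40 and -0.32, and this gap took up 0.909 of the range of the group, above Dixon's 95% critical value for 4 samples. In the A10i group A117 stood at -0.57 while the other 3 mice lay between -1.28 and -1.23, a gap of 0.932 of the range. The groups were examined for 32 sets of values, of which chance flags about 1 in 20. Without A129 the difference between A10i and DMSO in this ratio was -0.72, and without A117 it was -1.11.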

How the results depend on the processing

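No direction of the 7 genes in the edgeR, DESeq2 and limma-voom fits reversed. Between A10i and DMSO, 43 of 47 fits under other settings gave the calls above, and the other 4 were the calls by DESeq2. Over all genes, A10i against DMSO gave 0 calls, 12 at a threshold of 0.05, 227 with DESeq2, 43 with no filter, 11 with a fit of 11 libraries, and 0 to 1 without 1 library. DMSO against Sham gave 3857 calls, 6832 at 0.05 and 1522 (without S2) to 4051 (without A128), and A10i against Sham 3885, 6672 at 0.05 and 1620 (without S1) to 4365 (without A116). Ppbp in DMSO against Sham also lost its call with limma-voom (adjusted p = 0.0126), no filter (0.0385) and the fit of 11 libraries (0.0116). Cxcl3 lost it with no filter (0.0269). In A10i against Sham, Cxcl2 lost its call with limma-voom (0.0226), no filter (0.0273) and the fit of 11 libraries (0.0108), and Pf4 with no filter (0.0337). The cause was not tested. The difference in the ratio of Cxcl5 to neutrophil markers ran from -0.49 to 0.0109 over the omitted libraries and reversed to 0.0109 without A128. With raw CPM in place of CPM per kilobase, the inducible ligands held 6.39% in Sham, 51.5% in DMSO and 27.7% in A10i hearts. Requiring 10 counts in every library left no value for Cxcl2, Cxcl3, Cxcl5 and Cxcr2 against Sham or for Cxcl2 and Cxcl3 between A10i and DMSO. With library size alone the median log2 fold change of all genes was 0.21 and 0.18 against Sham and -0.01 between A10i and DMSO. Sham counts of 0 to 3 limit the folds of Cxcl2, Cxcl3, Cxcl5 and Cxcr2. No paired analysis was possible because the labels give the groups no shared replicate numbers.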
